A study of Mus musculus with 30 samples.

Results

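Egr1, Egr2, Egr3, Nr4a1, Nr4a2 and Nr4a3 are 6 of the 35972 genes listed in both deposited RNA tables, and all 6 passed the filter on low values in each comparison. They were chosen by gene family with measured values of these libraries in view, above all their changes with Y27632, so their values are given as a description, without a test. The cells were primary fibroblasts from mouse tail tendon, all labelled wildtype, grown in medium with 10% serum and treated in medium with 0.1% serum. Poly(A) RNA came from 3 groups of 3 libraries: the solvent DMSO, blebbistatin at 10 µM and Y27632 at 30 µM. Y27632 is a kinase inhibitor, while blebbistatin blocks the motor of non-muscle myosin II. ATAC libraries, which mark accessible chromatin, covered the same 3 treatments with 3 libraries each. A further 12 genomic DNA libraries, 3 per group, were from cells with neither drug, with doxycycline at 10 ng/mL, with blebbistatin at 10 µM or with both. The labels used here give no strain, age or sex of the mice, no duration of treatment and no statement of what doxycycline induced. They also do not say that the replicates came from separate animals or cultures, so p-values measure only the spread between these libraries, which may be technical.

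The Egr genes encode zinc finger transcription factors and the Nr4a genes encode orphan nuclear receptors that act as transcription factors without a known natural ligand. Both families are immediate early genes: their transcription starts quickly after a stimulus, without the need for new protein synthesis, and their transcripts are short-lived. Their promoters are classically driven by serum response factor (SRF), which binds CArG boxes, together with its ETS partners. They are also driven by CREB, which binds cyclic AMP response elements (CREs). In tendon, Egr1 and Egr2 are known for their role in matrix gene expression, Egr1 also as a factor that responds to mechanical load.

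The starts of 4 of the 6 genes had an entry in the RefSeq promoter table of build GRCm38.p6, those of Egr2, Nr4a1, Nr4a2 and Nr4a3, and the 250 bases before each start were searched on both strands for the CRE core TGACG and for the CArG box. The sequences below are shown because the 3 Nr4a windows each hold 4 CRE cores. They are written 5′ to 3′ on the gene's strand, with CRE cores, read as TGACG or its reverse complement, and the CArG box in capitals. The Nr4a1 window is chr15:101266596-101266845 on the plus strand, and the Nr4a2 window is chr2:57124004-57124253 on the minus strand. The annotated extent of Nr4a1 begins further upstream, at base 101253902 of chromosome 15, so its window lies inside that extent and belongs to 1 of its starts. The Egr2 window (chr10:67537619-67537868, plus strand) also lies inside the extent of its gene, which begins at base 67534469, and belongs to 1 of 5 entries. The Nr4a3 window (chr4:48045055-48045304, plus strand) lies mostly inside the extent of its gene, which begins at base 48045078. For Egr2 and Nr4a3 only stretches of 30 bases are therefore printed. They are at chr10:67537745-67537774 and chr10:67537789-67537818 for Egr2 and at chr4:48045070-48045099 and chr4:48045145-48045174 for Nr4a3.
Nr4a1, -250 to -1: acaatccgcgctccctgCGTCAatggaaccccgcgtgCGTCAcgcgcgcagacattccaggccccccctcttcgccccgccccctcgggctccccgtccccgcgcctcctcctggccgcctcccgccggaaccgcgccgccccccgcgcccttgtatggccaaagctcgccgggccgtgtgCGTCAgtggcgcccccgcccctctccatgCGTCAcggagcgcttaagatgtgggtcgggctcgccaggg
Nr4a2, -250 to -1: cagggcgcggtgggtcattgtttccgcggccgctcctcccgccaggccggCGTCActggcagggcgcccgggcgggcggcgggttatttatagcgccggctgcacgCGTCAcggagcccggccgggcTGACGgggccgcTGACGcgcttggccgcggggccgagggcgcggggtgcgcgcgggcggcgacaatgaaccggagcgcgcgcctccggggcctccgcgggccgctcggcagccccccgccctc
Nr4a3, -235 to -206: agggTGACGtagcgtcccatgtCGTCAcat
Nr4a3, -160 to -131: cctgtggcataaaTGACGtgccgagagagc
Egr2, -124 to -95: caaattggccatgTGACGgcaaaagctgcc
Egr2, -80 to -51: tcctcagtCCATATATGGgcagcgaCGTCA

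Positions count back from the base before the start, which is -1, and the remaining CRE core of Nr4a3, at -205 to -201, is not printed. Of all 32817 promoter windows of this length, 17.7% held at least 1 CRE core and 0.137% held at least 4. Egr2 held 2 CRE cores, a number that 3.9% of the windows reached, and a CArG box at -72 to -63, a motif found in 1.47% of the windows. The 8-letter CRE TGACGTCA, the Egr site GCGTGGGCG and the NBRE AAAGGTCA, the element bound by Nr4a monomers, had no match in the 4 windows, against 1.55%, 0.536% and 1.34% of all windows. The share of G and C was 61.6% in Egr2, 74.4% in Nr4a1, 80.0% in Nr4a2 and 63.6% in Nr4a3, beside a median of 52.4% over all windows, and the CRE core itself holds a CpG. A match describes letters only, and these motifs were picked after the RNA values had been seen.

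**Figure D1:**
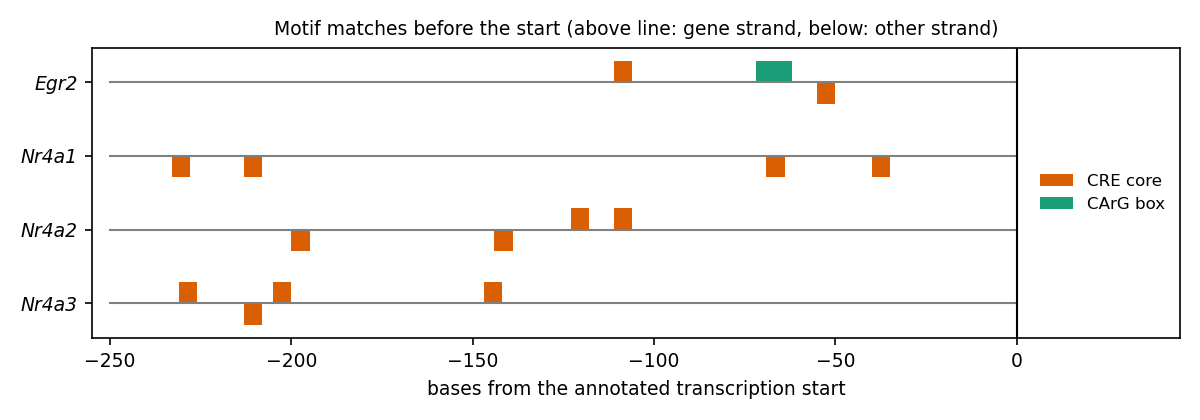
Matches to the CRE core (orange) and the CArG box (green) in the 250 bases before the annotated start of Egr2, Nr4a1, Nr4a2 and Nr4a3, plotted by distance from the start in bases, with matches on the gene's strand above each line and on the other strand below it. Each Nr4a gene has 4 CRE cores, and Egr2 has 2 with a CArG box between them.

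With Y27632, each of the 6 genes was higher in all 3 libraries than in any DMSO library. The values are normalised read counts, which are reads divided by a size factor per library, and they are set side by side within a gene only. Egr1 measured 1006, 691 and 857 in DMSO and 4690, 4528 and 5328 with Y27632, a mean of 851 ± 158 against 4848 ± 423 (SD, n = 3). Egr2 measured 146, 132 and 146 in DMSO and 823, 725 and 855 with Y27632. Egr3, which shares the zinc finger DNA-binding domain of the family, measured 118, 107 and 111 in DMSO and 743, 673 and 910 with Y27632. In all 3 Egr genes the lowest library with Y27632 was thus several times above the highest DMSO library.

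Among the receptors, Nr4a1, also called Nur77, measured 387, 356 and 326 in DMSO and 2551, 2167 and 2951 with Y27632. Nr4a3, also called Nor1, had few counts in DMSO, with 45.4, 36.6 and 38.2, and reached 334, 240 and 414. Nr4a2, also called Nurr1, measured 240.5, 282 and 288 in DMSO and 501, 438 and 469.6 with Y27632. Nr4a2 therefore moved in the same direction as the other five but over a much shorter range. The ratio of the group means was 5.70 for Egr1, 5.68 for Egr2, 6.94 for Egr3, 7.17 for Nr4a1, 8.21 for Nr4a3 and 1.74 for Nr4a2.

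On the log2(normalised count + 1) scale, on which changes of genes with few counts come out too small, the differences from DMSO with their standard errors were 2.52 ± 0.102 for Egr1, 2.50 ± 0.0808 for Egr2, 2.77 ± 0.102 for Egr3, 2.83 ± 0.0923 for Nr4a1, 2.98 ± 0.174 for Nr4a3 and 0.80 ± 0.0837 for Nr4a2. Over the 14833 genes tested, Nr4a3, Nr4a1 and Egr3 held ranks 2, 3 and 4 from the highest change, Egr1 and Egr2 ranks 6 and 7, and Nr4a2 rank 293. By adjusted p under 0.05, 18.1% of all genes tested were called higher and 17.8% lower with Y27632, and groups without overlap were found for 24.4% of genes in the higher and 23.7% in the lower direction. Nothing is read from the members' count against these shares, since this comparison was in view when they were chosen.

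**Figure D2:**
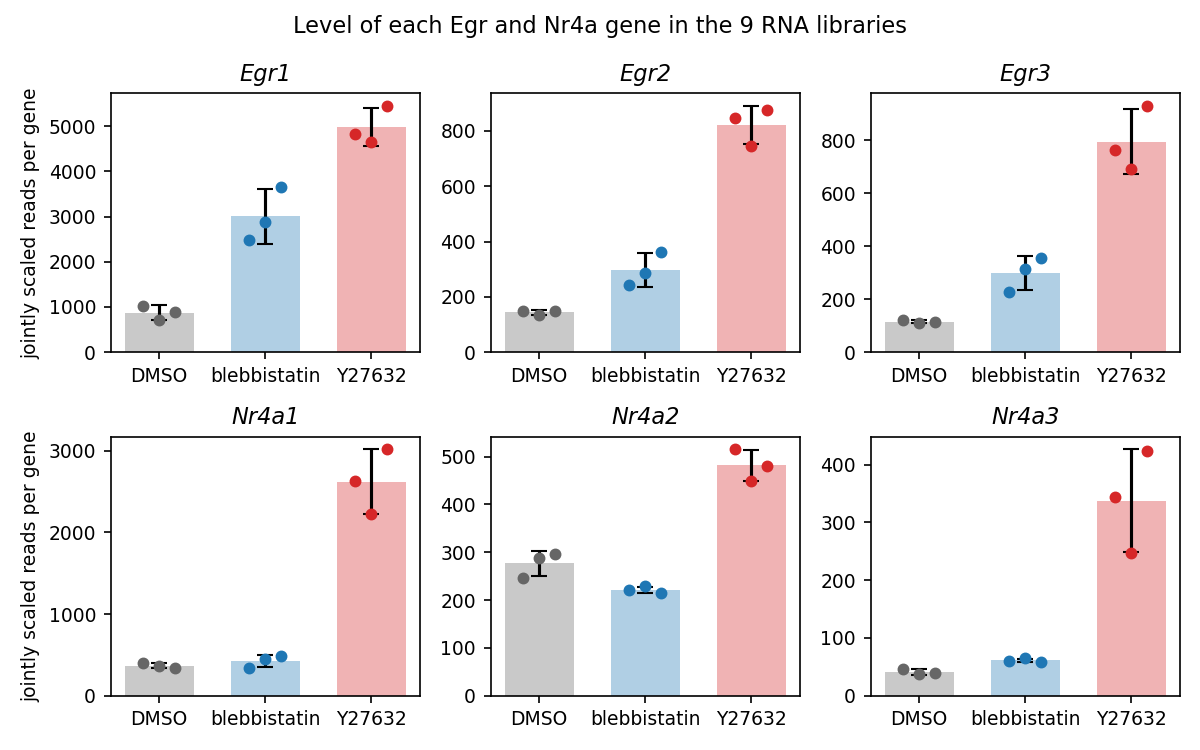
Reads per gene in each of the 9 RNA libraries after scaling the 9 together (points), with the group mean (bar) and SD (error bar, n = 3), for DMSO, blebbistatin and Y27632; each panel has its own vertical axis from 0. The Egr genes form 3 steps from DMSO over blebbistatin to Y27632, while Nr4a2 lies lowest with blebbistatin, at 216 to 229, and highest with Y27632, at 450.1 to 515.

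With blebbistatin, all 3 libraries lay above all 3 DMSO libraries for Egr1, Egr2, Egr3 and Nr4a3 and below them for Nr4a2, and the groups overlapped for Nr4a1. The members' values are again a description, because results with this drug were known when they were chosen and the DMSO libraries serve both comparisons. Over the 14882 genes tested 26.1% were called higher and 26.9% lower, and groups did not overlap for 30% of genes in the higher and 30.2% in the lower direction.

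Egr1 measured 968, 665 and 825 in DMSO and 2331, 2671 and 3444 with blebbistatin, a difference of 1.78 ± 0.137 (SE) on the log2 scale. Egr3 measured 113, 103 and 107 in DMSO and 215, 292 and 334 with blebbistatin, a difference of 1.35 ± 0.142. Egr2 measured 140.0, 127 and 140.1 in DMSO and 229.6, 266 and 342 with blebbistatin, a difference of 1.02 ± 0.131. None of the 3 had overlapping groups, and the ratios of the group means were 3.44, 2.61 and 2.06. By size of change Egr1 ranked 138, Egr3 287 and Egr2 535 from the highest among the genes tested.

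The Nr4a receptors had smaller differences than the Egr genes and not in 1 direction, a contrast between the families that was not itself tested. Nr4a3 measured 43.7, 35.3 and 36.8 in DMSO and 57.1, 60.0 and 55.1 with blebbistatin, a difference of 0.57 ± 0.169. Nr4a2 measured 231, 271 and 277 in DMSO and 208, 213 and 203 with blebbistatin, a difference of -0.32 ± 0.0912. The groups did not overlap for either gene, and the blebbistatin libraries were closer together than the DMSO libraries in both. Nr4a1 measured 372, 343 and 314 in DMSO and 322, 416 and 458 with blebbistatin, and its groups overlapped through the first blebbistatin library. Its difference was 0.20 ± 0.115, and 0.35 without that library. In the authors' deposited table the log2 fold changes with blebbistatin had wider standard errors. They were -0.32 ± 0.132 for Nr4a2, 0.57 ± 0.281 for Nr4a3 and 0.22 ± 0.127 for Nr4a1.

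**Figure D3:**
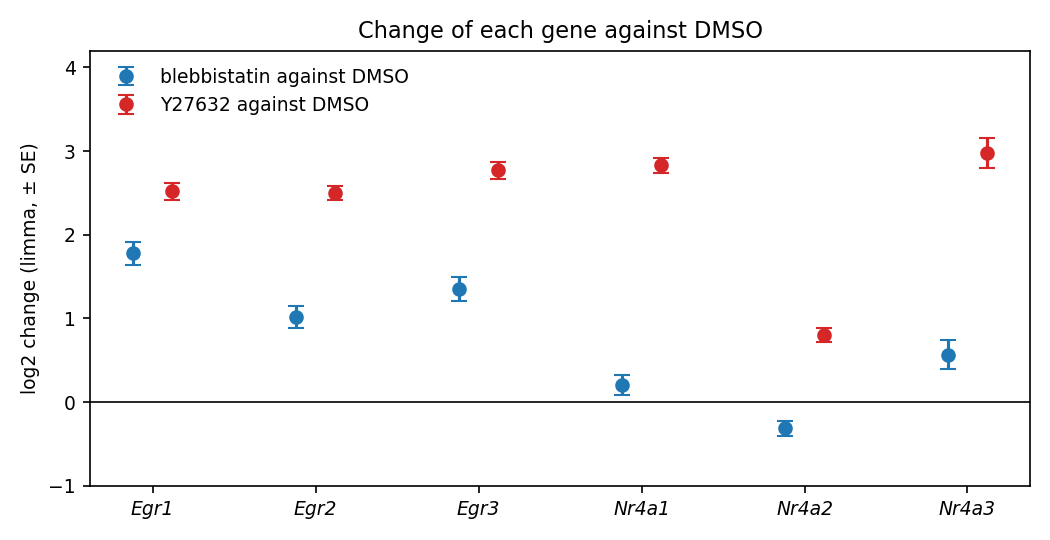
Log2 change against DMSO on the log2(normalised count + 1) scale, with its standard error, for each gene with blebbistatin (blue) and with Y27632 (red); both comparisons use the same 3 DMSO libraries. The blebbistatin changes run from -0.32 for Nr4a2 to 1.78 for Egr1, and the Y27632 changes from 0.80 for Nr4a2 to 2.98 for Nr4a3.

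The 2 drugs were compared directly on the reads recovered from both tables, with the 9 libraries scaled together by edgeR. The doses differ, 10 µM against 30 µM, and the compounds have different targets. All 6 genes were lower with blebbistatin than with Y27632, by log2 differences of -0.71 ± 0.120 for Egr1, -1.45 ± 0.107 for Egr2, -1.39 ± 0.128 for Egr3, -2.60 ± 0.116 for Nr4a1, -1.11 ± 0.0814 for Nr4a2 and -2.44 ± 0.177 for Nr4a3. These too are a description, and over all 14941 genes 26.2% were called lower and 26.9% higher. Nr4a1 and Nr4a3 held ranks 9 and 13 from the lowest difference, Egr2 rank 110, Egr3 rank 131, Nr4a2 rank 228 and Egr1 rank 566. Egr1 was thus the member whose levels with the 2 drugs lay closest on this scale.

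The order of the 3 conditions differed between the genes. On the jointly scaled counts Egr1 had means of 873 ± 162 in DMSO, 3003 ± 600.4 with blebbistatin and 4975 ± 419.9 with Y27632 (SD, n = 3), and Egr2 and Egr3 followed the same order with no overlap between neighbours. Nr4a3 had the order DMSO, blebbistatin, Y27632 as well, at 41.1 ± 4.76, 61.3 ± 2.98 and 338 ± 88.7. For Nr4a1 the lower neighbours, DMSO at 365 ± 30.8 and blebbistatin at 425 ± 74.1, did not differ beyond their spread, and Y27632 stood apart at 2623 ± 396. Nr4a2 had the order blebbistatin, DMSO, Y27632, at 222 ± 6.54, 277 ± 26.7 and 482 ± 32.7.

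The highest or lowest replicate of a condition was often the same library for several genes. With Y27632, replicate 2 had the lowest value of all 6 genes and replicate 3 the highest of 5 of 6. With blebbistatin, replicate 1 was lowest and replicate 3 highest for 4 of 6 genes. In DMSO, replicate 2 was lowest and replicate 1 highest for 4 of 6. Across the 9 libraries, which share 3 conditions and so are not independent points, Pearson's r between 2 members ran from 0.482 for Nr4a2 and Egr1 to 0.993 for Egr3 and Egr2, and was 0.986 for Nr4a3 and Nr4a1.

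**Figure D4:**
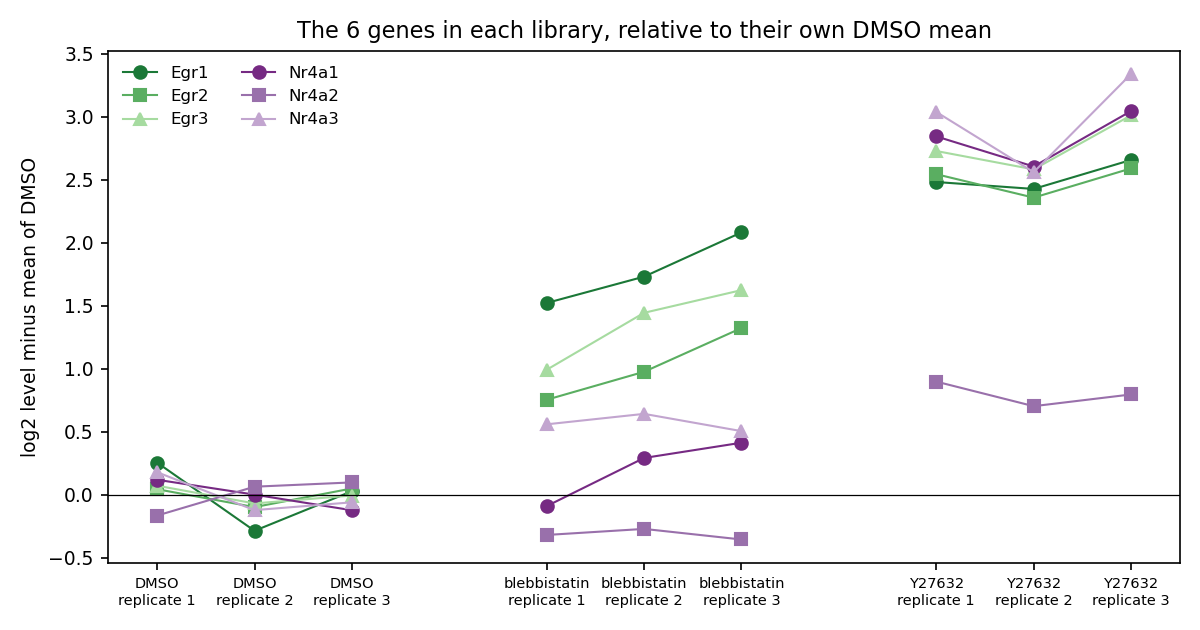
Log2 level of each gene in each library minus the mean of its 3 DMSO libraries, on jointly scaled counts; lines join the libraries of a group only to make a gene easy to follow and carry no order. The Egr genes (green) lie between their DMSO and Y27632 levels with blebbistatin, and so does Nr4a3, at 0.506 to 0.643. Of the other Nr4a genes (purple), Nr4a2 lies below its DMSO level there and Nr4a1 runs from -0.089 to 0.414.

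The genes most like the mean Egr profile over the 9 libraries, among 11455 genes with a mean of at least 100 scaled counts, were Prrx1, Spry4, Lrrn4cl and Tctn2, with Pearson's r of 0.991, 0.989, 0.986 and 0.984. Spry4, a feedback inhibitor of receptor tyrosine kinase signalling, differed from DMSO by 0.85 on the log2 scale with blebbistatin and by 1.85 with Y27632. Prrx1, a homeobox factor of mesenchymal cells, had smaller differences of 0.20 and 0.39, Lrrn4cl had 0.42 and 0.71, and Tctn2, which encodes a protein of the cilium base, had 0.14 and 0.23. The genes most like the mean Nr4a profile were Ivns1abp, Hes1, Cxcl1 and Hbegf, with r of 0.994, 0.993, 0.993 and 0.992. Hbegf, a growth factor that binds the EGF receptor, differed from DMSO by 0.17 with blebbistatin and by 1.79 with Y27632. Hes1, a repressor downstream of Notch, had differences of 0.06 and 1.65, the chemokine gene Cxcl1 of -0.19 and 2.44, and Ivns1abp of 0.02 and 0.53. Genes like the Egr mean thus had intermediate values with blebbistatin and genes like the Nr4a mean did not, which is the likeness they were picked for.

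Among 19 other immediate early genes, 18 rose with Y27632 and none fell by limma, with a median log2 change of 0.81 beside 0.004 over all genes tested. Of all genes tested, 18.1% were called higher and 17.8% lower. This list and the gene lists in the next paragraphs were chosen with earlier results of these data known. Their counts and adjusted p-values are therefore a description and not independent support. Arc, a gene best known as a neuronal immediate early gene, rose by 2.42 (adjusted p = 5.9e-09), and Fos, an AP-1 subunit, by 1.70 (adjusted p = 7.74e-08). The smallest rises were those of the Krüppel-like factor gene Klf6, at 0.20 (adjusted p = 2.09e-04), and of Maff, a small Maf factor, at 0.23 (adjusted p = 0.0408). The Maff call was lost when any DMSO library, or Y27632 replicate 1 or 3, was left out (adjusted p = 0.0527 to 0.182). Fosb was the only gene of the list that did not pass, with a difference of -0.24 (adjusted p = 0.251). Over the alternative analyses, 17 or 18 of the 19 were called higher.

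The same list was mixed with blebbistatin, where 8 of 19 rose, 5 fell and 6 did not pass, with a median of 0.14. Of all genes tested 26.1% were called higher and 26.9% lower, so the number that fell lies near its share. Without blebbistatin replicate 2, or without DMSO replicate 3, 5 of 19 were called higher. Arc rose by 0.86 (adjusted p = 1.47e-04) and Jun, the other core AP-1 subunit, by 0.69 (adjusted p = 1.9e-06). Klf4 fell by 1.28 on the log2 scale (adjusted p = 4.73e-11) and Klf2 fell by 0.82 (adjusted p = 1.44e-05), both Krüppel-like factors. In the direct comparison 17 of 19 were lower with blebbistatin than with Y27632, 1 was higher and 1 did not pass, at a median of -0.95. Of all genes tested there, 26.2% were called lower and 26.9% higher. Klf4 differed by -1.79 (edgeR adjusted p = 9.96e-14) and Klf2 by -1.61 (edgeR adjusted p = 3.5e-09). The gene that was higher, Fosb, at 0.37 (edgeR adjusted p = 0.0472), lost that call in 9 alternative analyses (adjusted p = 0.0519 to 0.147).

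**Figure D5:**
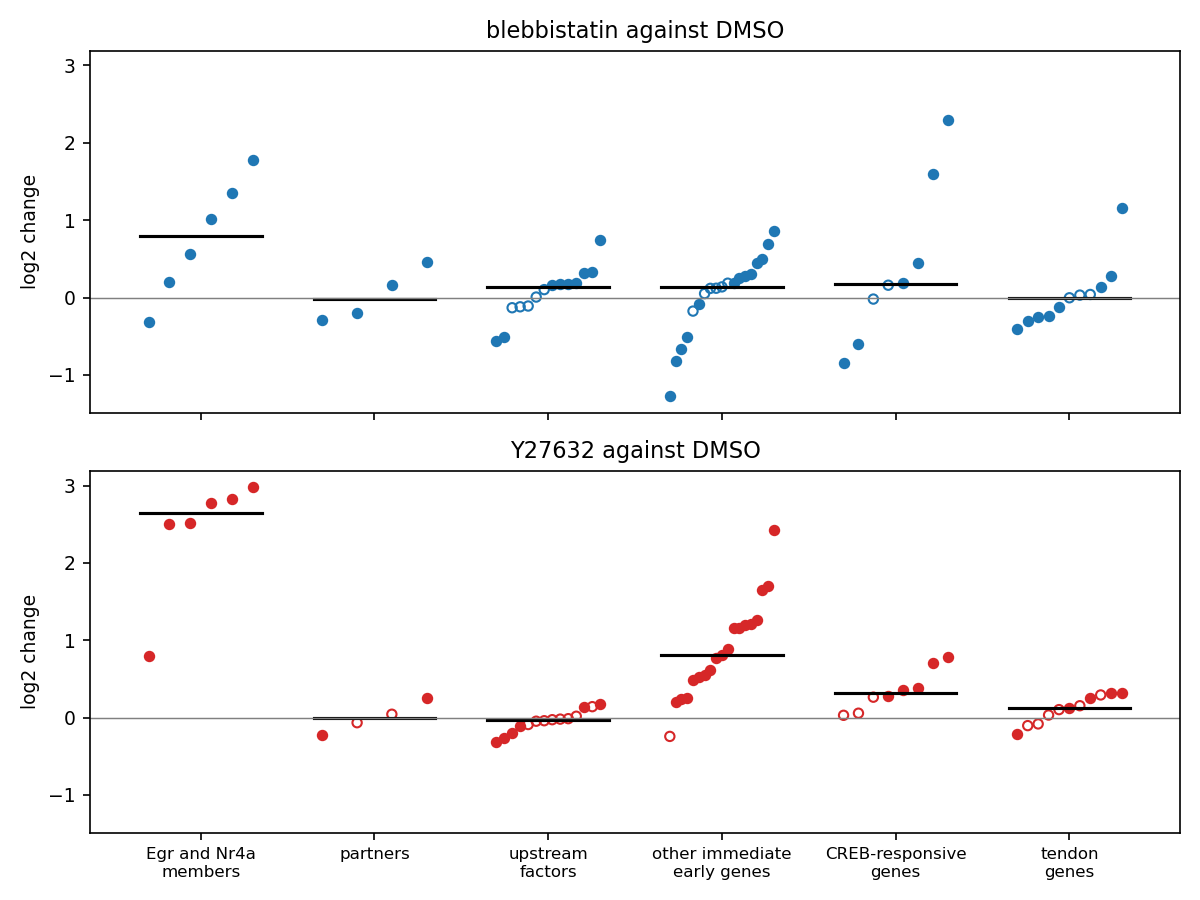
Log2 change against DMSO of each tested gene in the members and 5 lists, with blebbistatin (upper panel) and Y27632 (lower panel), sorted within a list; black bars are medians. In the 5 lists filled points passed an adjusted p under 0.05 and open points did not, while members are all drawn filled without a test; the other immediate early genes have a median of 0.14 in the upper and 0.81 in the lower panel.

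Of 6 partner genes of the 2 families 4 could be tested, of which 2 rose and 2 fell with blebbistatin and 1 rose and 1 fell with Y27632. The shares over all genes were 26.1% higher and 26.9% lower with blebbistatin, and 18.1% and 17.8% with Y27632. Nothing is read from counts over 4 genes. Rxrg was below the filter, and Egr4, the remaining Egr gene, had no read in DMSO or blebbistatin libraries and at most 1.77 normalised counts with Y27632. Nab1 and Nab2 encode corepressors that bind Egr proteins, and Nab2 is itself a known Egr target. With blebbistatin, Nab2 fell by 0.29 on the log2 scale (adjusted p = 6.91e-04) and Nab1 fell by 0.20 (adjusted p = 4.45e-04). With Y27632, Nab2 rose by 0.25 (adjusted p = 0.00171) and Nab1 fell by 0.22 (adjusted p = 2.78e-04). Nab2 was lower with blebbistatin than with Y27632 by a log2 difference of -0.52 (edgeR adjusted p = 4.51e-06). Rxra and Rxrb encode retinoid X receptors, with which Nr4a1 and Nr4a2 can form dimers. They rose with blebbistatin, by 0.47 (adjusted p = 1.05e-07) and 0.17 (adjusted p = 0.00575), and had differences of 0.04 (adjusted p = 0.326) and -0.07 (adjusted p = 0.252) with Y27632.

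Of 14 factors that act upstream of these promoters, 7 rose, 2 fell and 5 did not pass with blebbistatin, and 2 rose, 4 fell and 8 did not pass with Y27632. The latter counts lie near the shares over all genes, 18.1% higher and 17.8% lower. With blebbistatin these shares were 26.1% higher and 26.9% lower. With blebbistatin 4 fell without DMSO replicate 3, and with Y27632 2 fell without DMSO replicate 2 or 3 or Y27632 replicate 3. Srf fell by 0.56 on the log2 scale with blebbistatin (adjusted p = 2.12e-06) and fell by 0.20 with Y27632 (adjusted p = 0.00658). Mkl1, the gene of the actin-regulated SRF coactivator MRTF-A, fell by 0.51 (adjusted p = 2.07e-07) and by 0.31 (adjusted p = 6.01e-05). The transcripts of both factors were thus lower with each drug. Mef2c rose by 0.75 with blebbistatin (adjusted p = 9.98e-06) and fell by 0.27 on the log2 scale with Y27632 (adjusted p = 0.0201), the second of which was lost without DMSO replicate 2 or 3 or Y27632 replicate 3 (adjusted p = 0.0752 to 0.0809). These values are transcript levels and hold nothing on the activity of the proteins.

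Of 9 CREB-responsive genes 8 were tested, and with Y27632 5 rose, none fell and 3 did not pass, while with blebbistatin 4 rose, 2 fell and 2 did not pass. Without DMSO replicate 2, 3 of the 8 were called higher with Y27632. The shares over all genes were 18.1% higher and 17.8% lower with Y27632, and 26.1% and 26.9% with blebbistatin. The 2 falls with blebbistatin thus lie near the share over all genes. With Y27632, the kinase gene Sik1 rose by 0.78 (adjusted p = 7.62e-07), the clock gene Per1 by 0.70 (adjusted p = 1.31e-06) and Rgs2, a regulator of G protein signalling, by 0.36 (adjusted p = 0.00202). Crem rose by 0.28 (adjusted p = 0.0268), a call that was lost with DESeq2, with a replicate block and without DMSO replicate 1 or 2 or Y27632 replicate 1 or 2 (adjusted p = 0.0538 to 0.105). With blebbistatin the largest rise was in Rgs2, by 2.29 (adjusted p = 3.75e-11), followed by Ppargc1a, a coactivator of mitochondrial genes, by 1.60 (adjusted p = 1.46e-06). Pde4b, a phosphodiesterase that degrades cyclic AMP, fell by 0.84 on the log2 scale (adjusted p = 6.19e-08) and Nfil3 fell by 0.61 (adjusted p = 3.69e-06). Between the drugs, 5 of the 8 were lower with blebbistatin than with Y27632, 2 were higher and 1 did not pass. Of the 5, Sik1, Per1 and Pde4d rose with Y27632, as the members did. Pde4b and Nfil3 did not pass with Y27632, at 0.06 (adjusted p = 0.436) and 0.03 (adjusted p = 0.719). The median was -0.46, and 26.2% of all genes tested were called lower and 26.9% higher. The 2 that were higher with blebbistatin were Rgs2, by 1.94 (edgeR adjusted p = 3.76e-11), and Ppargc1a, by 1.36 (edgeR adjusted p = 3.43e-06).

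Tendon genes, which include known targets of Egr1 and Egr2 such as collagens, were called in both directions. With Y27632 4 of 11 rose, 1 fell and 6 did not pass, at a median of 0.12. Of all genes 18.1% were called higher and 17.8% lower with this drug. With blebbistatin 3 rose, 5 fell and 3 did not pass, at a median of -0.003, where 26.1% of all genes were called higher and 26.9% lower. With Y27632, 6 were called higher without DMSO replicate 2 and 3 lower without DMSO replicate 3, and with blebbistatin 3 were called lower without blebbistatin replicate 1 or 3 or DMSO replicate 2. Tgfb2, a growth factor gene, rose by 1.16 with blebbistatin (adjusted p = 9.48e-08) and by 0.32 with Y27632 (adjusted p = 0.00397). Decorin, Dcn, a small proteoglycan of the collagen fibril, rose by 0.28 (adjusted p = 1.18e-05) and 0.31 (adjusted p = 5.9e-06). Col5a1, a fibril collagen chain, fell by 0.30 on the log2 scale (adjusted p = 1.29e-04) and by 0.21 (adjusted p = 0.00178), and Col12a1 fell by 0.40 with blebbistatin (adjusted p = 3.65e-04). The collagen genes Col1a1 and Col1a2 fell with blebbistatin, by 0.25 (adjusted p = 0.00115) and 0.12 (adjusted p = 0.0314). Neither passed with Y27632, at -0.10 (adjusted p = 0.0939) and 0.03 (adjusted p = 0.574).

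In the chromatin data, the ATAC lists of sites that differed from DMSO held no site annotated to any of the 6 genes, among 970 sites for blebbistatin and 207 for Y27632. They also held none within 100 kb of the 6 genes. The nearest was 136117 bp from Nr4a1 in the blebbistatin list. Every listed site has an FDR no higher than 0.05, so a smaller difference at these genes would not be seen in them.

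The doxycycline experiment listed 2 intergenic sites upstream of Egr2, and none annotated to the other 5 genes. All site values are the authors' log2 group means, folds and FDR, without values per library. The site at chr10:67504323-67504497 in mm10, 33459 bp upstream of the annotated start of Egr2, had a log2 mean of 6.04 with doxycycline and 4.94 with neither drug (fold 1.1, FDR = 5.05e-04). The same site was at 4.80 with doxycycline and blebbistatin together, which is -1.24 from doxycycline alone (FDR = 3.26e-05). The site at chr10:67524120-67524310, 13654 bp upstream, had 5.75 with doxycycline and 4.50 with both drugs, a fold of -1.26 (FDR = 3.53e-04). Both directions were those of their whole lists: 99.78% of the 6346 sites were lower when blebbistatin was added to doxycycline, and 4.151% of the 7613 sites were lower with doxycycline. The 2 lists share the group with doxycycline alone. The list of blebbistatin without doxycycline, with 1231 sites, held none annotated to the 6 genes. The lists of the doxycycline experiment are labelled as cut on fold as well as on FDR. A smaller change at any of the 6 genes would therefore not be seen in them. Within 100 kb of the other 5 genes, sites annotated to other genes were listed: with doxycycline 3 near Egr1, 4 near Nr4a1 and 1 near Nr4a2, with blebbistatin added to doxycycline 2 near Egr1 and 1 near Nr4a1, and with blebbistatin without doxycycline 2 near Egr3. The nearest of these, 32877 bp from Nr4a2, had a log2 fold of 1.06 with doxycycline. No RNA was measured with doxycycline in the files used here.

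Total reads were 23375386 to 37061737 per RNA library, and a member had between 32 and 6239 reads in a library. Fibroblast markers summed to 25760 to 27930 CPM in all libraries, mostly from Col1a1, Col1a2 and Vim, with the 7 markers detected in each. Of the 7, 2 were called higher and 3 lower with blebbistatin, and 2 higher and 1 lower with Y27632. Tendon markers, 5 of 5 detected, summed to 1197 to 1254 CPM in DMSO, 1144 to 1309 with blebbistatin and 1380 to 1403 with Y27632, mostly from Thbs4. Of the 5, 2 were called higher and 1 lower with blebbistatin, and 3 higher and none lower with Y27632. Leukocyte markers summed to 46.4 to 53.2 CPM in DMSO, 69.7 to 80.8 with blebbistatin and 64.2 to 75.0 with Y27632, and 4 of 5 were tested and rose with each drug, while Cd3e had no read. Endothelial markers summed to 118 to 119, 78.5 to 88.5 and 106 to 111 CPM, mostly from Tek, and 1 of 3 tested, Tek, fell with each drug. Muscle markers, with Ckm at 0, reached at most 1.54 CPM, and keratinocyte markers 0.289. Schwann cell markers summed to 4.32 to 5.11 CPM in DMSO, 6.03 to 6.46 with blebbistatin and 5.03 to 6.16 with Y27632, and 1 of 2 tested, Sox10, rose with each drug. Chondrocyte markers summed to 5.09 to 6.10 CPM in DMSO, 8.21 to 8.87 with blebbistatin and 8.04 to 8.18 with Y27632, and 1 of 2 tested, Sox9, rose with each drug. Of all genes tested, 26.1% were called higher and 26.9% lower with blebbistatin, and 18.1% and 17.8% with Y27632. Nothing is read from counts over so few markers. The part of leukocyte, tendon, Schwann cell, chondrocyte or other markers in the changes of the Egr and Nr4a genes was not tested, and in bulk RNA fewer cells of a type cannot be told apart from less RNA per cell. Egr2 and Nr4a2 overlap other annotated genes, Gm32255 with 0 to 1 reads and LOC105244150 with 4 to 18 reads per library, and the use of strand in counting is not given in the sources used here.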

How the data were processed

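Poly(A) RNA, ATAC and genomic DNA libraries of tail-tendon fibroblasts were labelled by treatment, 3 libraries per group. The authors deposited, in 2 tables, a signal per gene: read counts divided by 1 size factor per library. Whole reads were recovered from it (all values above 0 within 0.01 of a whole number), and the DMSO reads were identical in both tables. Log2 fold changes, Wald scores (not used) and p-values in these tables, and the log2 group means, folds, FDR (adjusted p-values) and distances of the site lists, are the authors' deposited values, per the file headers. Per the submitters' processing notes, the tools were HISAT2, Picard, featureCounts, DESeq2, Bowtie2, SAMtools, MACS2, DiffBind and HOMER on mm10, with no settings. In the doxycycline list the reference column, headed as blebbistatin without doxycycline, was read as the group with neither drug: at 13 shared sites it differed from that group by -0.128 ± 0.0044 (mean ± SD) and from the headed group by 1.118 ± 0.184. Sample columns without a label numbered 0.

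Within each table, limma 3.58.1 (R 4.3.3, trended prior) was run on log2(normalised count + 1) for genes whose mean reached 10. Adjusted p-values are Benjamini-Hochberg values over all genes tested, called under 0.05. For blebbistatin against Y27632, all 9 libraries' recovered reads were scaled by TMM and fitted with the quasi-likelihood test of edgeR 4.0.16. DESeq2 1.42.0, other pseudocounts and filters, a replicate block and leaving out each library were alternatives. The code of the fits was checked on simulated counts. These had far fewer changed genes than were called here and the same spread setting for all genes. The check therefore does not cover data like these. Members and lists were chosen with earlier results of these data known, so the planned test of members with blebbistatin is replaced by values and standard errors. Named are the 6 members, per list and comparison up to 4 genes with the highest and lowest changes among called genes, any partner or upstream factor, and 4 genes of like pattern per family. Fosb, Klf6, Dusp1, Csrnp1, Pde4d, Col1a1 and Col1a2 were in part named after their values were seen. The calls of Pde4d, Col1a1 and Col1a2 were not followed singly over the alternatives. No genome was used, and promoter letters come from RefSeq.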

Additional observations from a re-analysis of the deposited data

Results flagged for a closer look

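Several named genes had opposite directions with the 2 drugs, with no overlap of either drug's libraries with DMSO. The difference between the drugs is given for each as a log2 value from edgeR on all 9 libraries. The genes were picked by this rule on the same libraries, so a difference between the drugs followed from the choice. The adjusted p-values between the drugs are therefore no support for it. The share of all genes that meet the rule was not counted. For Nr4a2 it was -1.11, from a lower level with blebbistatin and a higher one with Y27632, and this difference was not tested, because the gene was chosen with its values in view. For Klf4 it was -1.79 (adjusted p = 9.96e-14) and for Klf2 -1.61 (adjusted p = 3.5e-09), both lower with blebbistatin and higher with Y27632. For Klf6 it was -0.26 (adjusted p = 2.23e-06). The blebbistatin change of Klf6 alone, -0.08 (adjusted p = 0.0414), was lost in 8 alternatives (adjusted p = 0.0673 to 0.141). For Dusp1, a phosphatase gene, it was -1.53 (adjusted p = 1.18e-11), from -0.66 with blebbistatin and 0.88 with Y27632, and for Csrnp1 it was -1.28 (adjusted p = 8.96e-07), from -0.51 and 0.77. For Nab2 it was -0.52 (adjusted p = 4.51e-06). For Mef2c it was 1.03 (adjusted p = 9.06e-08), higher with blebbistatin and lower with Y27632, where the Y27632 change alone was lost without 1 of 3 libraries, as given above. For Elk3, an ETS partner of SRF, it was 0.44 (adjusted p = 2.03e-07), from 0.32 with blebbistatin and -0.10 with Y27632, where the Y27632 change alone (adjusted p = 0.0478) was lost in 10 alternatives (adjusted p = 0.0502 to 0.169). Dusp1, Csrnp1 and Elk3 were added after their values were seen. All these comparisons against DMSO share the same 3 DMSO libraries.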

How the results depend on the processing

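The number of genes called was 7894 with blebbistatin, 5328 with Y27632 and 7929 between the drugs, and stayed within 1.5 times of these in all 41 alternatives, at 6838 to 7924, 4268 to 5354 and 7067 to 8207. With the replicate number as a block the counts were 7604, 4633 and 7699. Deviations of same-numbered libraries of 2 groups from their group means correlated at -0.164 to 0.126 over 12464 genes. No shared deviation by replicate number was thus seen, which cannot settle how the cultures or animals were matched. Among the named genes other than members, the block ended the calls of Crem (adjusted p = 0.0538) and Elk3 (adjusted p = 0.0662) with Y27632 and Klf6 with blebbistatin (adjusted p = 0.0673). All 83 alternative values of members with blebbistatin, all 84 with Y27632 and all 78 between the drugs kept their direction, and at a filter of 50 Nr4a3 gave no value with blebbistatin. Leaving out 1 library at a time, the members' changes with blebbistatin ranged from 1.62 to 1.91 for Egr1, 0.86 to 1.15 for Egr2, 1.21 to 1.53 for Egr3, 0.10 to 0.35 for Nr4a1, -0.40 to -0.27 for Nr4a2 and 0.51 to 0.66 for Nr4a3. Cxcl1 with blebbistatin, not called at -0.19, ranged from -0.35 to 0.004, the latter without blebbistatin replicate 1. The 3 listings of Egr2 sites were all still present when the FDR limit was 0.01, and the 1 site shared by both lists was the same at an overlap of 50% of both. Nr4a3, with the fewest reads, is the least precise member.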
